A study of Mus musculus with 23 samples.

Results

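Organoids grown in Matrigel for 13 days were compared with organoids grown in collagen for 7 days, by bulk RNA sequencing of 3 libraries each. These 6 libraries were chosen by their labels alone, out of the 23 of the series, and both groups belong to the batch labelled 1. All of them derive from 1 KC tumour cell line, isolated from the pancreatic cancer of 1 mouse whose tumour model carries Cre recombinase at the Ptf1a locus (Ptf1a Cre/+), which is active in the pancreatic lineage. One group was embedded in growth factor-reduced Matrigel, a basement membrane extract of a mouse sarcoma that is rich in laminin and collagen IV, and the other in floating gels of rat-tail collagen I. Both received the same serum-containing medium and both were freed with collagenase type 4 before lysis. The series also holds 5 KC libraries from collagen at day 13 and 6 from 2D culture in batch 1. Day 13 collagen values are set beside the comparison for some of the genes and lists, not for all. Matrix and day differ together between the groups, so their parts in a difference cannot be told apart from these libraries. The study calls the libraries of both days separate experiments, all with this line. The p-values take their spread from the libraries within each of 6 conditions, over all 23 libraries. These include 3 KC and 3 KPC libraries from collagen at day 13 in batch 2, KPC being another mouse model of the study. The p-values therefore do not measure the spread of this line alone, nor the spread between lines. In these bulk samples, fewer cells of a kind and less RNA per cell cannot be told apart.

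Pancreatic ductal adenocarcinoma cells of the KC mouse can grow in soft matrices from single cells into multicellular structures. In floating collagen they extend branches, which proliferate and invade and later thicken and open a lumen, while in Matrigel, where laminin and collagen IV meet the integrins of the cell base, epithelial cells usually form round, polarised cysts. Epithelial state, cell division and the secretory products of a duct are the processes on which such structures differ.

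Each count stands for 1 captured RNA molecule, read by its unique molecular identifier (UMI) at the 3' end. Totals were 1612870 to 2265047 counts per Matrigel library and 2059462 to 2471058 per collagen day 7 library. Values are given as CPM, counts scaled per 1000000 with TMM factors, and 3 counts, the most that a count of 0 allows, correspond to 1.18 to 1.75 CPM in Matrigel and 1.16 to 1.47 CPM in collagen. The share of mitochondrial transcripts was 4.31 to 4.84% in Matrigel and 3.37 to 4.09% in collagen. The ductal identity of the cells was checked on 8 markers, whose summed level was 10910 to 12460 CPM in Matrigel and 11320 to 12760 CPM in collagen. Krt19, a ductal keratin, was at 3330, 3607 and 3532 CPM in Matrigel and 3871, 3374 and 3616 CPM in collagen, and its difference of -0.05 (SE 0.17, adjusted p = 0.827) on the log2 scale did not pass the test. Markers of other cells stayed low. The summed level of 12 fibroblast markers was 58.9 to 84.5 CPM in Matrigel and 54.99 to 90.3 in collagen, mostly Col1a2, with Fap, Thy1 and Pdpn at 0. Of 12 leukocyte markers 7 were in the table, and their sum was 30.7 to 37.1 CPM in Matrigel against 3.41 to 5.88 in collagen. That sum was nearly all Cd68, a lysosomal protein gene that is not limited to macrophages, at a mean of 32.9 and 4.61 CPM, while Cd79a, Lyz2 and Fcer1g were at 0. Endothelial markers summed to at most 3.54 CPM in any of the 6 libraries and endocrine markers to 0. Acinar markers, led by Cela1, summed to 6.69 to 12.2 CPM in Matrigel and 3.10 to 4.41 CPM in collagen.

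Expression differed in about every other gene. Of 11144 genes that passed the filter on low counts, 5637 (50.6%) had a Benjamini-Hochberg adjusted p-value under 0.1 in edgeR's quasi-likelihood test, the threshold for every call below. Of these, 2776 (24.9% of those tested) were higher in Matrigel day 13 and 2861 (25.7%) were lower. The counts called in each list below are to be read beside these 2 shares. The changes were larger upwards: 1374 genes (12.3%) were at least 2-fold higher and 842 (7.56%) at least 2-fold lower, together 19.9% of the tested genes. The 3 Matrigel libraries lay wholly above the 3 collagen libraries in 3171 genes (28.5%) and wholly below them in 3277 (29.4%), which makes 57.9% in all. Most genes given below with single-library values were chosen among called genes without overlap, so their lack of overlap is no added support. The median log2 fold change over the tested genes was -0.01. With scaling by library size alone this median became 0.11, and the higher genes made up 59.1% of the calls in place of 49.3%, so the balance of directions depends on the scaling. Fold changes are given on the log2 scale as Matrigel day 13 minus collagen day 7, so a positive value means a higher level in Matrigel.

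The 17 libraries of batch 1 were placed by principal components of 500 genes with the highest variance, which set the 2 groups at opposite ends of the first component, which held 47.5% of the variance. The Matrigel libraries had scores of 17.02 to 20.2 and the collagen day 7 libraries -29.5 to -24.3. On the second component (27.9%) they lay at 0.88 to 4.83 and -22.1 to -18.8. The third component (8.83%) held the Matrigel libraries at -14.9 to -14.4 and the day 7 libraries at -1.27 to -1.16. The mean distance between a Matrigel and a collagen day 7 library was 53.05, against 11.2 within Matrigel and 13.8 within day 7, and the smallest distance between the groups (49.5) was over 3 times the largest within them (15.02). Over all 11144 tested genes the groups were apart by less of a margin, at 89.9 for the smallest distance between them and 47.2 for the largest within. Day 13 collagen libraries lay 27.3 from the Matrigel libraries and 50.4 from the day 7 libraries of their own matrix.

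**Figure D1:**
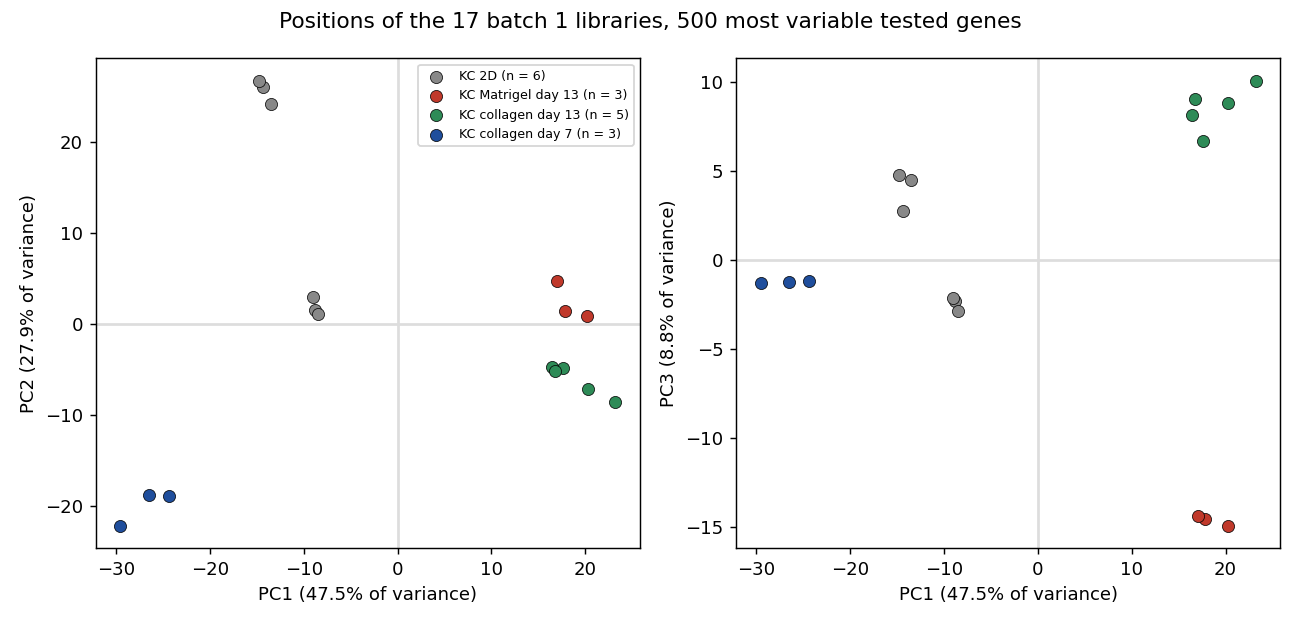
Positions of the 17 batch 1 libraries on the first 3 principal components of log2 CPM (arbitrary units, share of variance on each axis); each point is 1 library and colours mark the conditions. Matrigel day 13 (17.02 to 20.2) and collagen day 7 (-29.5 to -24.3) lie at opposite ends of PC1, and collagen day 13 lies beside Matrigel on PC1 and apart from it on PC3.

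Of the 12 genes that rose most, 6 encode antimicrobial or barrier products of a mucosal surface. Lcn2, which encodes the siderophore-binding lipocalin 2 and lies on chromosome 2 from 32384633 to 32388252 (GRCm38), was at 29.9, 31.4 and 40.8 CPM in Matrigel and at 0, 0.387 and 0 CPM in collagen day 7, where 1 count was seen in the 3 libraries together. The ratio of the summed counts was 232-fold, with a 95% counting interval of 41.2 to 9198. C3, the central complement component, was at 20.1, 13.5 and 27.4 CPM against 0.490, 0.387 and 0.426 CPM, 3 counts in all in collagen, a ratio of 45.7 with a counting interval of 15.3 to 225. For both genes the Matrigel libraries stood clear of collagen libraries that held next to nothing. Ltf encodes the iron-binding lactotransferrin of milk and mucus and lies on chromosome 9 from 111019271 to 111042767. It had 115, 120.3 and 96.2 CPM in Matrigel and 0.490, 2.71 and 1.28 CPM in collagen day 7, a log2 fold change of 6.08 (SE 0.33, adjusted p = 1.95e-12). Duox2, the dual oxidase that makes hydrogen peroxide at the apical membrane of mucosal epithelia (chromosome 2 from 122279247 to 122298449), had 88.1, 95.04 and 79.8 CPM against 2.45, 0.775 and 0.853 CPM, a change of 6.01 (SE 0.39, adjusted p = 1.14e-11). Its neighbour Duoxa2, whose product brings the oxidase to the cell surface, had 189.6, 214 and 199.9 CPM against 4.41, 5.81 and 4.26 CPM, a change of 5.35 (SE 0.39, adjusted p = 6.83e-11). The 2 partners of this enzyme therefore rose together, where the choice of genes required no overlap between the groups. Pigr, the receptor that carries dimeric IgA through epithelia, had 108, 116 and 93.8 CPM against 2.94, 1.94 and 1.71 CPM, a change of 5.58 (SE 0.27, adjusted p = 7.74e-14). Duoxa2 overlaps Duoxa1 on the opposite strand, and whether the counting used strand is not given in the sources used here, but Duoxa1 itself did not pass the filter on low counts.

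Of the 25 genes listed for mucosal defence and the acute phase, 11 were tested and each of these was called higher, with a median of 5.34, which is the fitted value of C3. Since a gene absent from collagen enters the test only through its level in Matrigel, the count over tested members is no more than a description. Among the rest, Dmbt1, a scavenger receptor of mucus, had means of 958 CPM in Matrigel and 58.01 CPM in collagen and changed by 4.04, and Cp, the copper-carrying ceruloplasmin, had 163 CPM in Matrigel and 13.7 CPM in collagen and changed by 3.56. The smallest change was that of Wfdc2, a protease inhibitor of epithelial secretions, at 0.69. The other listed genes of the table, among them Saa1, Saa3, Hp, Reg3b and Reg3g, were too low to test. In collagen at day 13, Ltf was at 1.68 ± 1.10 CPM (SD, n = 5), C3 at 0.739 ± 0.959 CPM (SD, n = 5) and Lcn2 at 0.943 ± 0.553 CPM (SD, n = 5), and none of these 3 passed the test between the collagen days. Pigr, at 21.6 ± 3.48 CPM (SD, n = 5), and Duoxa2, at 16.5 ± 6.77 CPM (SD, n = 5), lay between the groups and differed from both. Between Matrigel and collagen at day 13, 10 of the 11 tested genes were called higher in Matrigel (6.62% of all tested genes were), and between collagen day 13 and day 7, 6 of 11 were called higher at day 13 (27.1%). In either direction these comparisons called 12.9% and 55.1% of the tested genes.

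**Figure D2:**
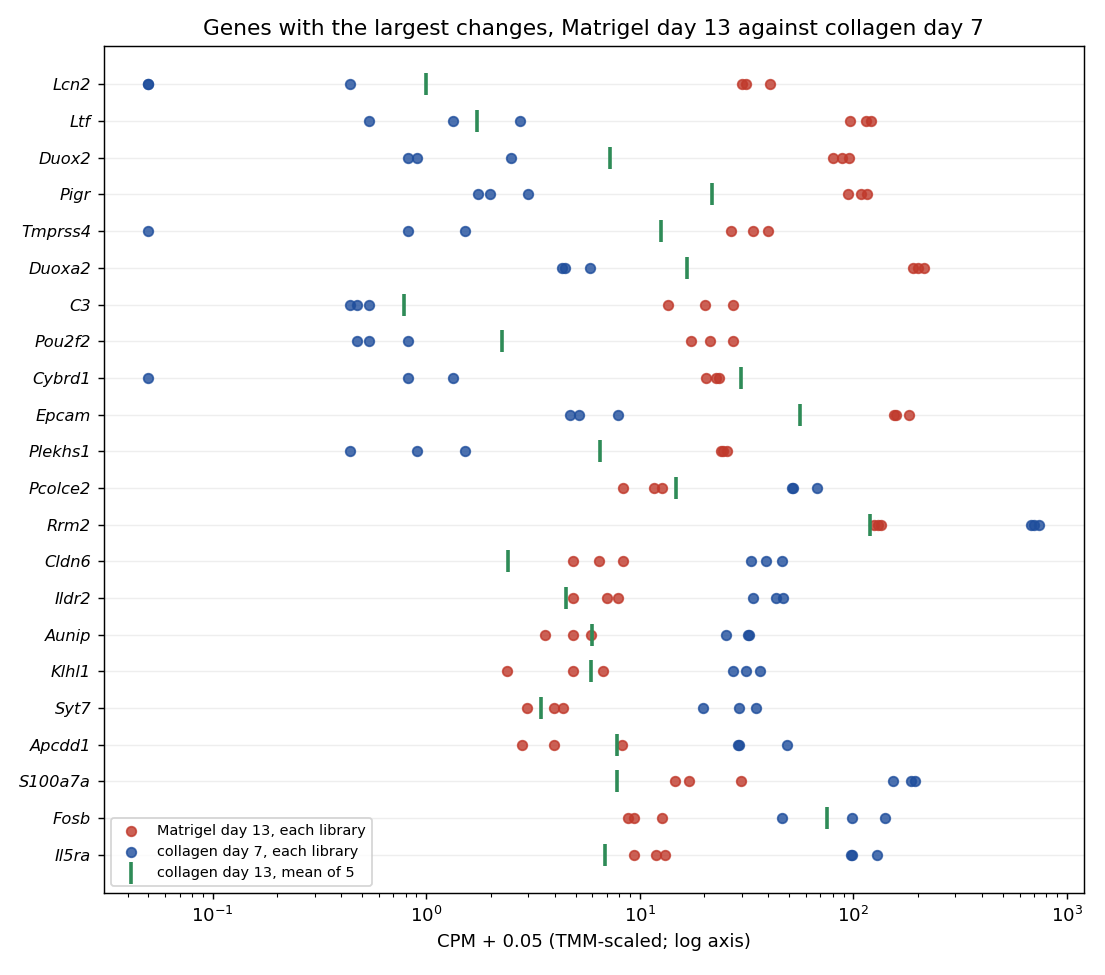
CPM (plus 0.05, log axis) of 11 of the 12 strongest rises and 11 of the 12 strongest falls, ordered by fold change, with each of the 3 Matrigel day 13 (red) and 3 collagen day 7 libraries (blue) as a point and the mean of 5 collagen day 13 libraries as a green bar. In each gene shown the red and blue points do not overlap, which the choice of genes required. For Fosb, unlike the other falling genes shown, the green bar lies by the blue points.

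Chemokines that draw neutrophils and other leukocytes followed. Of 19 tested genes of the list of chemokines and inflammatory mediators, 11 were called higher and 2 lower, with a median of 1.38. Cxcl5, a ligand of the neutrophil receptor Cxcr2, was at 1515, 1606 and 1561 CPM in Matrigel and 76.5, 91.4 and 46.04 CPM in collagen day 7, a change of 4.45 (SE 0.29, adjusted p = 1.56e-11). No library of 1 group came near the other. Il1a, the intracellular alarmin interleukin 1 alpha, had 77.1, 72.8 and 68.2 CPM against 3.43, 5.81 and 1.71 CPM, a change of 4.27 (SE 0.26, adjusted p = 2.50e-12). Ccl20, which attracts cells that carry Ccr6, had 160.1, 201 and 170.2 CPM against 13.2, 15.5 and 8.95 CPM, a change of 3.80 (SE 0.26, adjusted p = 3.74e-11). The 2 that fell were Ptgs2, the inducible cyclooxygenase, with 7.08, 8.28 and 10.49 CPM against 15.2, 34.1 and 34.1 CPM (-1.72, adjusted p = 7.69e-04), and Il1rn, the antagonist of the interleukin 1 receptor, with 501, 539.7 and 473 CPM against 1154, 916 and 917 CPM (-0.98, adjusted p = 3.54e-04). The agonist Il1a and the antagonist Il1rn thus moved in opposite directions. At day 13 in collagen, Cxcl5 was at 267 ± 79.3 CPM (SD, n = 5), Il1a at 36.03 ± 7.78 CPM (SD, n = 5) and Ccl20 at 71.2 ± 10.504 CPM (SD, n = 5). Each lay between the groups and differed from Matrigel day 13 and from collagen day 7.

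NF-kB is the factor best known for switching on such chemokines, and its consensus was searched on both strands of the promoter windows of RefSeq (GRCm38.p6), 250 bases before to 50 after the start site. It was present in 6 of the 15 windows found for the list (40.0%) and in 437 of the 8541 windows of tested genes (5.12%), while none of the 8 windows found for the mucosal defence list held it. The window shown is that of the list gene with the largest change among those that held a match and whose start lay within 100 bases of the GENCODE start. It belongs to Cxcl3, another Cxcr2 ligand, which had 5.51, 2.62 and 5.83 CPM in Matrigel and 0.490, 0 and 0 CPM in collagen day 7 (adjusted p = 1.51e-04). It lies below the level set for naming genes and was chosen after its values were seen. The window spans chr5:90785851-90786150 on the plus strand. Capitals mark the matched letters, where a match on the plus strand and 1 on the minus strand overlap by 9 bases.
Cxcl3: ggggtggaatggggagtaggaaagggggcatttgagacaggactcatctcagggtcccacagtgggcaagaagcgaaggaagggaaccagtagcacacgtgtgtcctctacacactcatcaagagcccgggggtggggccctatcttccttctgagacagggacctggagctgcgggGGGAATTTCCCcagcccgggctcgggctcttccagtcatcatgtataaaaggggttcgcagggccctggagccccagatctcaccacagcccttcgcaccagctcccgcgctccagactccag

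Epithelial junction and surface genes were higher in Matrigel, while the keratins that define the duct changed by less than 2-fold. Of 26 tested genes of the ductal and epithelial list, 20 were called higher and 2 lower, with a median of 1.78. Epcam, the epithelial cell adhesion molecule (chromosome 17 from 87635979 to 87651129), was at 155, 183 and 158 CPM in Matrigel and at 7.85, 4.65 and 5.12 CPM in collagen day 7, a change of 4.83 (SE 0.27, adjusted p = 8.73e-13). Prom1, which encodes prominin 1 of apical membrane protrusions, was at 287, 276 and 284 CPM against 17.7, 13.9 and 9.38 CPM, a change of 4.37 (SE 0.21, adjusted p = 7.74e-14). St14, the membrane protease matriptase, was at 22.4, 19.2 and 18.1 CPM against 0.981, 0.775 and 0.426 CPM, a change of 4.67 (SE 0.49, adjusted p = 3.16e-08). Its inhibitor Spint1 rose with it, from a mean of 2.38 to 40.7 CPM (4.04). Tight junction genes on the list changed by 0.52 (Tjp1), 2.36 (Ocln), 2.51 (Cgn) and 1.73 (Tjp3), and each of these was called. The change in E-cadherin was smaller. Cdh1 was at 268, 303 and 313 CPM in Matrigel and 151, 172 and 222 CPM in collagen day 7, with a change of 0.70 (SE 0.16, adjusted p = 0.00117) and no overlap. Krt7 was called higher at 0.36 (adjusted p = 0.0973), with 1647, 1828 and 1862 CPM against 1372, 1361 and 1416 CPM, and Krt8 was called lower at -0.45 (adjusted p = 0.0626), and both calls were lost under other settings. The adjusted p reached 0.205 for Krt7, whose call was lost without Matrigel replicate 2 or 3 or any 1 collagen day 7 library, and 0.307 for Krt8, whose call was lost without Matrigel replicate 1 or 2 or collagen day 7 replicate 1 or 3. Cdh17, the liver-intestine cadherin, went the other way, with 217, 259 and 252 CPM against 412, 435 and 558 CPM and a change of -0.95 (SE 0.23, adjusted p = 0.0014).

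The mesenchymal list did not move as a block. Of 26 tested genes, 5 were called lower and 4 higher, with a median of -0.27. Both shares are below the 25.7% and 24.9% over all tested genes. Vim, the intermediate filament vimentin, was at 1019, 929 and 1028 CPM in Matrigel and at 3208, 2888 and 3452 CPM in collagen day 7, a change of -1.68 (SE 0.14, adjusted p = 4.22e-10). Cdh2, N-cadherin, was at 11.02, 8.72 and 6.41 CPM against 21.1, 29.8 and 36.7 CPM, a change of -1.71 (SE 0.25, adjusted p = 5.71e-06), and Axl, a receptor tyrosine kinase, was at 81.4, 74.5 and 94.99 CPM against 204, 188 and 231 CPM, a change of -1.31 (SE 0.13, adjusted p = 1.42e-08). All 3 were lower in every Matrigel library than in any day 7 library. The choice of genes required this for Axl, while Vim and Cdh2 were to be named whatever their values. Of the transcription factors of the list, Zeb2 was called (-1.19, means 5.33 CPM in Matrigel and 12.5 CPM in collagen) but Zeb1 (-0.42, adjusted p = 0.234), Snai2 (-0.33, adjusted p = 0.493) and Twist1 (-0.11, adjusted p = 0.743) were not. Among the genes called higher were Spp1, the secreted osteopontin (0.71), Ccn2, a matricellular protein (1.32), and Cd44, the hyaluronan receptor (0.33). In collagen day 13, Vim was at 832 ± 103 CPM (SD, n = 5) and Cdh2 at 5.70 ± 1.24 CPM (SD, n = 5), and neither passed the test against Matrigel. Cdh1 was at 223 ± 34.3 CPM (SD, n = 5) there, between the groups. It was called near the threshold against Matrigel (0.40, adjusted p = 0.082) and against day 7 (0.30, adjusted p = 0.0992). Epcam was at 56.2 ± 13.4 CPM (SD, n = 5), which is called against Matrigel (1.56, adjusted p = 8.64e-07) as well as against day 7 (3.27, adjusted p = 3.85e-10).

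Secreted mucus and gastric or intestinal products were another large group that rose. Of 29 tested genes of the mucin and gut-like list 24 were called higher and 2 lower, with a median of 2.29. Tff3, a trefoil peptide of mucus, was at 1819, 2271 and 2392 CPM in Matrigel and 138, 139 and 83.98 CPM in collagen day 7, a change of 4.16 (SE 0.35, adjusted p = 9.52e-10). Gkn3, a gastrokine of the stomach lining, was at 265, 320.4 and 259 CPM against 20.6, 24.02 and 13.6 CPM, a change of 3.85 (SE 0.28, adjusted p = 8.45e-11). Oit1 was at 26.8, 28.3 and 31.5 CPM against 0.981, 2.71 and 1.28 CPM, a change of 4.01 (SE 0.30, adjusted p = 1.43e-10). Muc1, the transmembrane mucin of ducts, rose from a mean of 78.6 to 903 CPM (3.52), and Muc5ac, a gel-forming gastric mucin, from 100.1 to 492 CPM (2.29). The genes called lower were the intestinal factor Cdx2 (38.95, 33.1 and 46.04 CPM against 75.5, 55.01 and 63.1 CPM, -0.72) and Anxa10 (-0.55), so this factor moved against most of the gut products. Hnf4a, another factor of the gut, was at 83.8 CPM in Matrigel and 92.7 CPM in collagen and was not called (-0.14, adjusted p = 0.643). At day 13 in collagen 25 of the 29 genes were called higher than at day 7 (27.1% of all tested genes were). Against Matrigel 11 were called higher in collagen (6.29% of all tested genes were) and 4 lower (6.62%). Gkn3, at 241 ± 61.9 CPM (SD, n = 5), did not pass the test against Matrigel, and Tff3, at 1053 ± 226 CPM (SD, n = 5), was lower than in Matrigel.

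Genes for ion and fluid transport rose in part. Of 26 tested genes 17 were called higher and 3 lower, with a median of 1.26. Clca1, a secreted regulator of chloride conductance in mucous cells, was at 3253, 3923 and 3305 CPM in Matrigel and 245, 253 and 162 CPM in collagen day 7, a change of 3.99 (SE 0.18, adjusted p = 3.85e-14). Car2, the carbonic anhydrase that supplies bicarbonate, was at 704, 801 and 573 CPM against 74.5, 75.5 and 46.9 CPM, a change of 3.40 (SE 0.18, adjusted p = 3.93e-13). Kcnq1, a potassium channel subunit of epithelia, was at 24, 32.7 and 18.1 CPM against 0.981, 2.71 and 1.28 CPM, a change of 3.82 (SE 0.40, adjusted p = 4.27e-08). Cftr, the chloride channel of the duct, rose from a mean of 5.01 to 17.1 CPM (1.72), and Slc4a4, a bicarbonate cotransporter, from 15.3 to 64.5 CPM (2.06). The calcium-activated chloride channel Ano1, at 122.8, 106 and 114 CPM against 134, 172 and 199 CPM, fell by 0.56 (adjusted p = 0.00708), and the calcium-activated potassium channel Kcnn4 changed by -0.48 (adjusted p = 0.0293), which was not called without collagen day 7 replicate 3 (-0.39, adjusted p = 0.107). In collagen day 13 Clca1 at 3722 ± 256 CPM (SD, n = 5) and Car2 at 611 ± 72.5 CPM (SD, n = 5) were close to their Matrigel levels and did not pass the test against Matrigel, whereas Kcnq1 at 3.89 ± 2.45 CPM (SD, n = 5) was lower than in Matrigel (2.66, adjusted p = 8.27e-07) and higher than at day 7 (1.16, adjusted p = 0.0506).

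Among 21 tested lineage transcription factors 9 were called higher and 1 lower, with a median of 0.34. Foxa3, a forkhead factor of the gut endoderm, was at 15.7, 20.9 and 18.1 CPM in Matrigel and 1.47, 3.49 and 2.13 CPM in collagen day 7, a change of 2.87 (SE 0.42, adjusted p = 5.42e-06). Tfcp2l1, a grainyhead-related factor of ducts, was at 35.4, 43.6 and 40.2 CPM against 7.35, 8.14 and 8.10 CPM (2.32), and Sox17, an endoderm factor, was at 79.9, 105 and 72.3 CPM against 28.4, 29.1 and 25.2 CPM (1.64). Sox9, the factor that marks pancreatic ducts, rose from a mean of 87.5 to 225 CPM (1.36). The endoderm factors Pdx1 (0.25, adjusted p = 0.223), Gata6 (-0.13, adjusted p = 0.586) and Foxa2 (-0.27, adjusted p = 0.167) did not pass the test, so the change was not shared by the list. Runx2, a factor of bone and of invasive tumours, was called lower at -0.69, but not without collagen day 7 replicate 2 (-0.55, adjusted p = 0.109). Among the 12 genes with the largest rise was also the octamer-binding factor Pou2f2, at 17.3, 21.4 and 27.4 CPM against 0.490, 0.775 and 0.426 CPM (5.09). The same group held Tmprss4, a membrane serine protease, at 26.8, 39.7 and 33.8 CPM against 1.47, 0.775 and 0 CPM (5.41), and Cybrd1, a ferric reductase of iron uptake, at 20.5, 23.5 and 22.7 CPM against 0, 0.775 and 1.28 CPM (4.83). Tmprss4 overlaps BC049352 on the opposite strand, which did not pass the filter on low counts. Plekhs1 was at 24, 24.4 and 25.6 CPM against 1.47, 0.387 and 0.853 CPM (4.73). For these low genes the collagen day 7 libraries held 0 to 3 counts each, which leaves the size of the fold change uncertain. In collagen day 13, Cybrd1 at 29.6 ± 13.99 CPM (SD, n = 5) did not pass the test against Matrigel, and 10 of the 12 were called lower in collagen than in Matrigel (6.62% of all tested genes were).

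Cell division genes were lower in Matrigel day 13 across their lists. All 33 S phase genes were tested and called lower, by a median of -1.22, and 30 of 32 G2/M and mitosis genes were called lower, with a median of -1.49. Rrm2, the small subunit of ribonucleotide reductase (chromosome 12 from 24708241 to 24714146), was at 135, 129.9 and 125 CPM in Matrigel and 739, 677 and 702 CPM in collagen day 7, a change of -2.44 (SE 0.26, adjusted p = 5.47e-08). E2f8, a repressor of the E2F family, was at 8.66, 10.03 and 4.66 CPM against 30.9, 36.03 and 37.5 CPM (-2.11), and Gins1, of the replicative helicase, at 9.84, 7.85 and 7.58 CPM against 26.5, 31.8 and 29.8 CPM (-1.78). All 3 were lower in each Matrigel library than in any of the day 7 libraries, which the choice of genes required. Birc5, survivin of the chromosomal passenger complex, was at 62.2, 72.8 and 73.4 CPM against 316, 299 and 320.1 CPM, a change of -2.17 (SE 0.17, adjusted p = 1.79e-10), and its partner Cdca8, borealin, at 40.5, 40.98 and 40.2 CPM against 138, 139 and 165 CPM (-1.86). Bub1, a spindle checkpoint kinase, was at 5.90, 7.41 and 8.74 CPM against 29.4, 30.2 and 29.4 CPM (-2.03). The proliferation marker Mki67 was at 44.5, 44.5 and 26.8 CPM against 34.8, 126 and 120.2 CPM (-1.27, adjusted p = 0.00236), and here collagen day 7 replicate 1 lay within the Matrigel range. Bub1b did not pass the test (-0.74, adjusted p = 0.105). Pttg1, securin, was the exception in direction, at 42.1, 46.2 and 43.7 CPM against 20.1, 36.03 and 25.6 CPM, higher by 0.68 (SE 0.22, adjusted p = 0.014).

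Few of these genes separated the 2 matrices at day 13. Between the matrices at day 13, a single gene of the S phase and G2/M lists was called by edgeR (12.9% of all tested genes were), with medians of 0.16 and 0.13. Between collagen day 13 and day 7, 33 and 31 were called lower (28.1% of all tested genes were), with medians of -1.42 and -1.64. Rrm2 was at 119.9 ± 26.7 CPM (SD, n = 5) in collagen day 13 and differed from Matrigel by 0.11, adjusted p = 0.853, and Birc5 was at 68.8 ± 11.9 CPM (SD, n = 5) and differed by 0.01, adjusted p = 0.985. These comparisons share libraries with the main one and are therefore no independent check of it.

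Promoter windows of these genes are shown because 2 families of regulators, the E2F factors for S phase and the DREAM and B-Myb complexes with NF-Y for mitosis, are known to act on them. The E2F letters TTTCGCGC, TTTGGCGC, TTTCCCGC and TTTGCCGC were found on either strand in 8 of 27 S phase windows (29.6%) and in 366 of 8541 windows of all tested genes (4.29%). The CCAAT letters of NF-Y were found in 22 of 28 G2/M windows (78.6%), against 39.0% of all windows. The letters TTTGAA of the cell cycle homology region (CHR) were found in 20 of the 28 (71.4%), against 11.6%. The windows shown are those of the most changed list genes that held the motifs and whose start lay within 100 bases of the GENCODE start. Mcm3, a subunit of the replicative helicase, changed by -1.18 and its window spans chr1:20820263-20820562 on the minus strand, with the 2 E2F matches in capitals. Aurka, a mitotic kinase, changed by -1.79 and its window spans chr2:172370521-172370820 on the minus strand. In the Aurka window the capitals mark CCAAT starting 51 and 19 bases before the start site and the CHR 33 bases into the transcript. A match describes the letters of the window and was not tested for binding.
Mcm3: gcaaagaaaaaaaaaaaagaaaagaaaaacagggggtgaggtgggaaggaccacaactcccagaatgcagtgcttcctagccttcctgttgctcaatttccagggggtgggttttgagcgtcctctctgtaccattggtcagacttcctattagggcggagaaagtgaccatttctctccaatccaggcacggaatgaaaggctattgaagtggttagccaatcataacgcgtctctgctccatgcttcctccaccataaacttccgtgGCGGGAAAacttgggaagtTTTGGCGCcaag
Aurka: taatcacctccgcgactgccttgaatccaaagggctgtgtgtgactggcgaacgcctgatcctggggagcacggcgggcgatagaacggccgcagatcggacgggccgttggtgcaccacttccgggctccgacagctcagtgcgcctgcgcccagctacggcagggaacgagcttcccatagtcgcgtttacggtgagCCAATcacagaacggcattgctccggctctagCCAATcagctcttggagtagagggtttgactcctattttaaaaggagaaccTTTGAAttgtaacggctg

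Genes of ribosome production and other known Myc targets fell as well. Of 30 tested genes 27 were called lower and 3 were not called, with a median of -0.98, against -0.01 for all tested genes. Odc1, the first enzyme of polyamine synthesis, was at 15.3, 11.8 and 20.4 CPM in Matrigel and 54.4, 41.8 and 57.1 CPM in collagen day 7, a change of -1.71 (SE 0.21, adjusted p = 4.13e-07). Cad, which starts pyrimidine synthesis, was at 17.3, 13.5 and 9.91 CPM against 30.4, 41.5 and 58.4 CPM (-1.65), and Rrp12, a ribosome export factor, at 4.72, 3.92 and 6.41 CPM against 19.1, 21.3 and 20.04 CPM (-2.02). Nucleolin (Ncl) and nucleophosmin (Npm1), at means of 341 CPM in Matrigel and 683 CPM in collagen and of 492 CPM in Matrigel and 959.9 CPM in collagen, changed by -1.0001 and -0.96. Transcripts of ribosomal proteins made up 8.01 to 9.76% of the counts in Matrigel and 10.7 to 11.6% in collagen day 7. Myc itself did not pass the test, at 145 CPM in Matrigel and 119 CPM in collagen (0.29, adjusted p = 0.175). In collagen day 13, 2 of the 30 genes were called against Matrigel (12.9% of all tested genes were) and 28 were called lower than at day 7 (28.1%).

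The 12 genes that fell most were of mixed function. Il5ra, which encodes the alpha chain of the interleukin 5 receptor (chromosome 6 from 106710357 to 106749037), was at 11.8, 13.1 and 9.32 CPM in Matrigel and 97.1, 98.4 and 129 CPM in collagen day 7, a change of -3.22 (SE 0.23, adjusted p = 4.86e-11). S100a7a, a psoriasin-type S100 protein of stressed skin, was at 14.6, 17.002 and 29.7 CPM against 194, 153 and 186 CPM, a change of -3.16 (SE 0.25, adjusted p = 2.15e-10). Apcdd1, a Wnt inhibitor, was at 2.75, 3.92 and 8.16 CPM against 28.9, 28.7 and 49.02 CPM (-2.92). Cldn6, a claudin of embryonic epithelia, was at 8.26, 4.796 and 6.41 CPM against 46.1, 32.9 and 38.8 CPM (-2.57). Others were Syt7, a calcium sensor of exocytosis (4.33, 3.92 and 2.91 CPM against 19.6, 29.1 and 34.95 CPM, -2.86), Klhl1 (-2.70), Aunip (-2.67), Ildr2 (-2.65) and Pcolce2, an enhancer of procollagen processing (8.26, 12.6 and 11.7 CPM against 51.5, 51.9 and 67.4 CPM, -2.40), besides Rrm2 above and Fosb below. Of the 12, 4 were called between Matrigel and collagen at day 13 (12.9% of all tested genes were) and 11 between the collagen days (55.1%). S100a7a at 7.79 ± 3.70 CPM (SD, n = 5) and Cldn6 at 2.35 ± 1.15 CPM (SD, n = 5) were lower still in collagen day 13 than in Matrigel, and Fosb was the gene that did not pass the test between the collagen days.

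The chromatin proteins Hmga1 and Hmga2, which are high in embryonic and tumour cells, fell with them. Hmga2 was at 109, 102 and 114 CPM in Matrigel and 382, 442 and 524 CPM in collagen day 7, a change of -2.05 (SE 0.17, adjusted p = 7.25e-10). Hmga1 was at 41.3, 38.4 and 50.1 CPM against 221, 196 and 204 CPM, a change of -2.26 (SE 0.17, adjusted p = 1.61e-10), and Ezh2, the methyltransferase of Polycomb complex 2, at 37.8, 45.8 and 49.5 CPM against 92.7, 85.2 and 107 CPM (-1.10). Only 8 of the 17 listed oncofetal genes were tested, of which 3 were called lower and 1, Igf2bp3 with means of 1.79 CPM in Matrigel and 0.271 CPM in collagen, higher.

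Immediate early genes, which growth factor and stress signals switch on within minutes, were lower in Matrigel. Of 19 tested, 11 were called lower and 2 higher, with a median of -0.66. Fosb (chromosome 7 from 19302696 to 19310051) was at 12.6, 8.72 and 9.32 CPM in Matrigel and 46.1, 98.01 and 140.2 CPM in collagen day 7, a change of -3.20 (SE 0.37, adjusted p = 1.64e-07). Fos, which joins Jun proteins in AP-1, was at 126, 104 and 131 CPM against 289.8, 504 and 503 CPM, a change of -1.85 (SE 0.29, adjusted p = 1.60e-05), and the nuclear receptor Nr4a1 at 12.98, 9.16 and 9.32 CPM against 15.7, 47.3 and 47.3 CPM (-1.80). In each of the 3 genes collagen day 7 replicate 1 was the lowest of its group. It still lay above every Matrigel library, which the choice of genes required. Egr1 fell from a mean of 109.9 to 39.6 CPM (-1.47) and Fosl1 from 149 to 48.4 CPM (-1.60), while Junb (-0.02, adjusted p = 0.908) did not pass the test. The genes called higher were Btg2, an antiproliferative gene (185, 202 and 170.2 CPM against 117, 129 and 138 CPM, 0.53), and Fosl2 (0.36, adjusted p = 0.0748). Fosl2 lost its call in 8 of 17 alternative settings, in which the adjusted p reached 0.218, among them the omission of any 1 Matrigel library or of collagen day 7 replicate 1 or 2. In contrast to the cell division genes, many of these were called between the matrices at day 13. Fos was at 719 ± 54.6 CPM (SD, n = 5) in collagen day 13, -2.58, adjusted p = 5.10e-07 for Matrigel minus collagen, and Fosb at 75.03 ± 10.51 CPM (SD, n = 5), -2.86, adjusted p = 2.76e-06. Of the 19, 13 were called lower in Matrigel than in collagen at day 13 (6.29% of all tested genes were), and 11 were called higher in collagen at day 13 than at day 7 (27.1%).

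Of 18 tested genes downstream of ERK, 8 were called lower and 2 higher, with a median of -0.37. Of 4 tested EGF receptor ligands of the list 3 were called lower, and a further listed ligand, Epgn, was too low to test. Areg, amphiregulin, was at 105, 88.5 and 78.1 CPM in Matrigel and 205, 273 and 335 CPM in collagen day 7, a change of -1.58 (SE 0.18, adjusted p = 2.06e-07), Ereg, epiregulin, at 9.84, 8.28 and 10.49 CPM against 25.01, 27.5 and 49.02 CPM (-1.83), and Hbegf at 168, 165 and 171 CPM against 251, 386 and 509 CPM (-1.18). For these 3 ligands each Matrigel library lay below each day 7 library, which the choice of genes required. The ligand Tgfa, at 16.1, 17.002 and 13.99 CPM against 12.7, 23.6 and 27.3 CPM, overlapped between the groups and did not pass the test (-0.44, adjusted p = 0.239). The phosphatase Dusp6, a direct readout of ERK activity in many cells, did not pass the test (-0.27, adjusted p = 0.115), nor did Spry4 (0.44, adjusted p = 0.305). Phlda1 was called higher, at 504, 572 and 501 CPM against 286, 377 and 394 CPM (0.58), and so was Spry1 (0.41, adjusted p = 0.0838). Spry1 lost its call in 8 of 17 alternative settings, in which the adjusted p reached 0.171, among them the omission of any 1 Matrigel library or of collagen day 7 replicate 2 or 3.

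**Figure D3:**
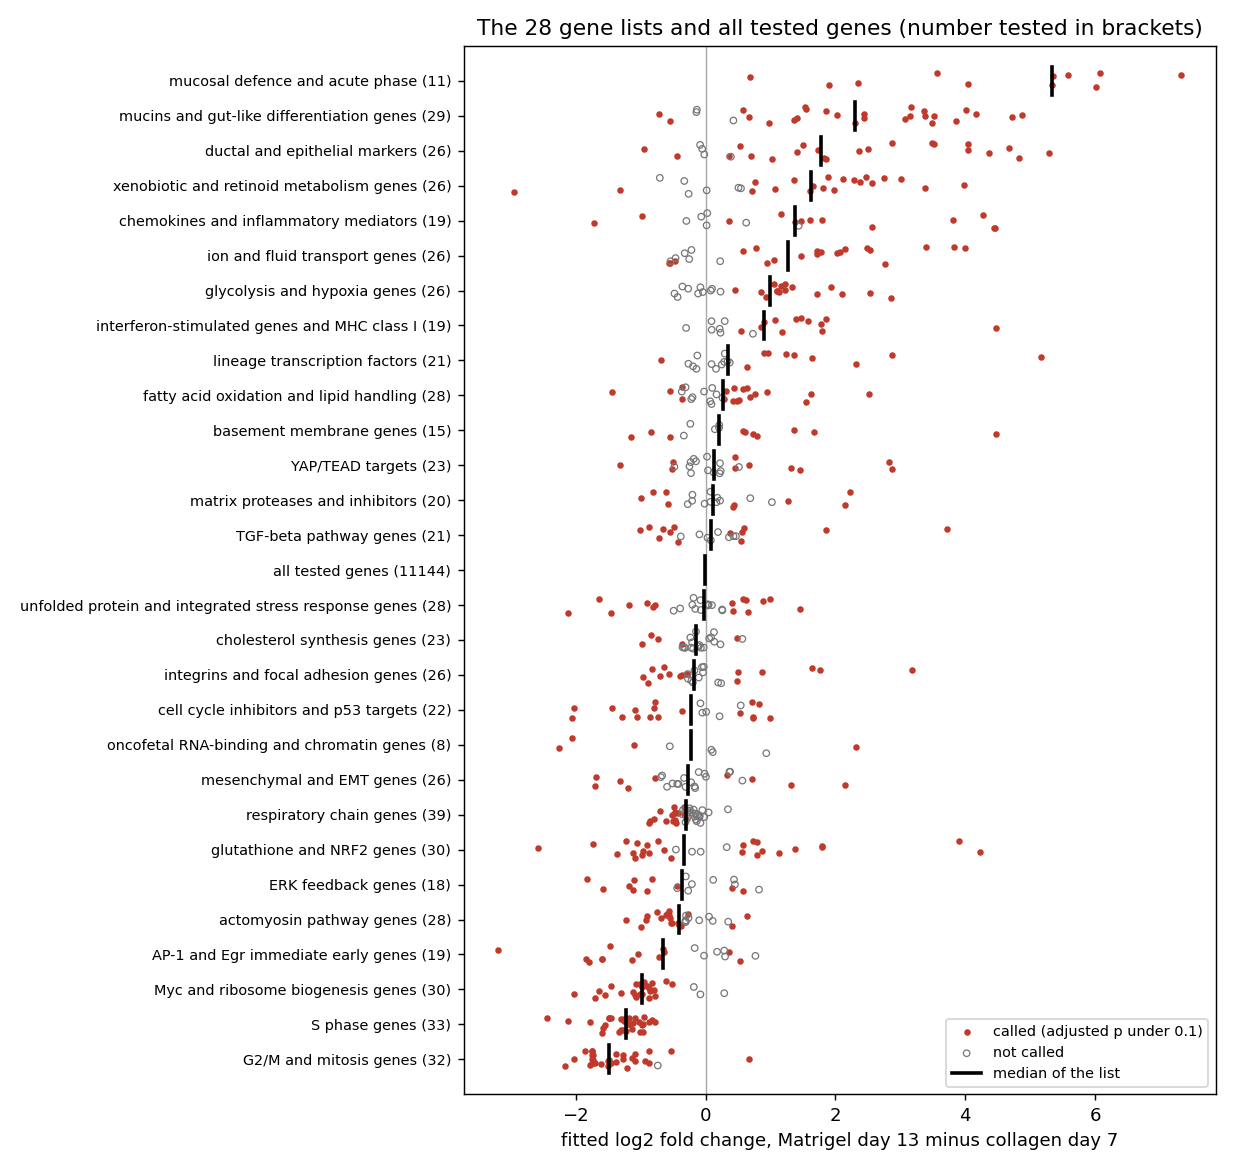
Fitted log2 fold change (Matrigel day 13 minus collagen day 7) of every tested gene in 28 lists, with called genes filled, other genes open and the median of each list, and of all 11144 tested genes, as a black line. Mucosal defence (5.34) and the mucin and gut-like list (2.29) have the highest medians, and G2/M (-1.49) and S phase (-1.22) the lowest.

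Genes of the actin cytoskeleton were mostly lower in Matrigel, 2 of them by at least 2-fold. Of 28 tested actomyosin pathway genes, 17 were called lower and 2 higher, with a median of -0.42. Actb was at 4269, 4481 and 4670.1 CPM in Matrigel and 10117, 8171 and 8593 CPM in collagen day 7, a change of -1.002 (SE 0.15, adjusted p = 6.35e-06), Pfn1, profilin 1, at 1237, 1314 and 1256 CPM against 3160.1, 2824 and 2930.3 CPM (-1.23), and Flna, filamin A, at 232, 240.2 and 279 CPM against 371, 425 and 615 CPM (-0.91). Myosin genes were mixed. The light chains Myl12a (-0.43, adjusted p = 0.0144) and Myl6 (-0.26, adjusted p = 0.0912) were called lower, Myl12b was called higher (0.41, adjusted p = 0.0318), and the heavy chains Myh9 (-0.31, adjusted p = 0.15) and Myh10 (0.35, adjusted p = 0.713) did not pass the test. Myl12a and Myl12b are close relatives, between which reads can be split, and Myl12b was not called without Matrigel replicate 2 (0.32, adjusted p = 0.132). Rhoc was called higher (0.63). Of 26 tested integrin and focal adhesion genes 9 were called lower and 6 higher (25.7% and 24.9% of all tested genes were), with a median of -0.18. The alpha subunits of laminin receptors, Itga6 (172, 199 and 180.1 CPM against 296, 337 and 390.5 CPM, -0.89) and Itga3 (128, 133 and 131 CPM against 194, 208 and 295 CPM, -0.83), were lower in Matrigel day 13. In collagen day 13 Itga6 was at 146.9 ± 21.98 CPM (SD, n = 5) and Itga3 at 104.2 ± 10.26 CPM (SD, n = 5). Neither passed the test against Matrigel (0.32, adjusted p = 0.21, and 0.32, adjusted p = 0.165). Both were called lower at day 13 than at day 7 in collagen (-1.22 and -1.16). Itga2, of the collagen receptor alpha2beta1, was called higher (0.48, means 90.3 CPM in Matrigel and 64.6 CPM in collagen), and the collagen receptor kinase Ddr1 was too (0.87). Itgb6, of an epithelial integrin that frees TGF-beta, was at 44.1, 40.5 and 37.9 CPM against 4.90, 3.87 and 4.69 CPM, a change of 3.18 (SE 0.31, adjusted p = 1.15e-08), and Fermt1, the epithelial kindlin, at 359, 360.1 and 361 CPM against 87.8, 104 and 127 CPM (1.76).

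The cells' own basement membrane genes split. Of 15 tested, 7 were called higher and 3 lower, with a median of 0.21. The 3 that fell were Nid1 (37.8, 37.9 and 31.5 CPM against 69.6, 82.1 and 86.1 CPM, -1.14), Col4a1 (-0.84) and Col4a2 (-0.55), which encode nidogen and the main chains of collagen IV. Lama3, the alpha chain of laminin 332, was at 16.1, 12.6 and 13.4 CPM in Matrigel and 0, 1.16 and 0.426 CPM in collagen day 7, where 4 counts were seen in all, a change of 4.47 (SE 0.50, adjusted p = 1.12e-07). Its partner chain Lamb3 was not called (0.21, adjusted p = 0.587). Lama3 was at 1.68 ± 1.33 CPM (SD, n = 5) in collagen day 13 and lower there than in Matrigel (3.06, adjusted p = 1.44e-06). Of 20 tested matrix proteases and inhibitors 5 were called higher and 4 lower, with a median of 0.12, shares near the 24.9% and 25.7% over all tested genes. Mmp15, a membrane-bound metalloprotease, rose to 64.1, 69.3 and 65.8 CPM from 14.2, 14.3 and 14.1 CPM (2.22), whereas Mmp14, of the same kind and the main collagenase of the cell surface, was called lower (-0.58) at 218, 221 and 169.6 CPM against 199, 316 and 397 CPM, where the groups overlapped. The inhibitors Timp1 (90.1, 69.3 and 90.9 CPM against 183, 162 and 150.5 CPM, -0.99) and Timp2 (-0.81) were called lower too.

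TGF-beta pathway genes and YAP/TEAD targets showed no common direction. Of 21 tested TGF-beta pathway genes 6 were called higher and 7 lower (median 0.08), and of 23 YAP/TEAD targets 7 higher and 3 lower (median 0.12). Over all tested genes 24.9% were called higher and 25.7% lower. Pmepa1, a feedback gene induced by TGF-beta, was at 219, 214 and 204 CPM in Matrigel and 393, 422 and 468 CPM in collagen day 7, a change of -1.01 (SE 0.12, adjusted p = 1.75e-07), and Id3, a BMP target, at 109, 103 and 137 CPM against 216, 203 and 221 CPM (-0.88). Ltbp2, an extracellular binding protein of this family, was at 11.02, 10.03 and 9.91 CPM against 0.981, 0.387 and 0.853 CPM (3.73), and Bmp4 at 10.6, 10.9 and 11.7 CPM against 1.96, 3.10 and 3.84 CPM (1.85), so this BMP ligand was higher while the BMP target was lower. Of the classical YAP targets, Ccn2 was higher in Matrigel at 71.6, 64.96 and 84.5 CPM against 26.97, 32.2 and 28.6 CPM (1.32), Ccn1 was lower (-0.52, adjusted p = 0.0313), and Ankrd1 was higher (0.46). Ccn1 was not called without Matrigel replicate 2 (-0.48, adjusted p = 0.103) or without collagen day 7 replicate 3 (-0.40, adjusted p = 0.159). Between the matrices at day 13, Matrigel had the higher level in 12 of the 23 YAP/TEAD targets and the lower in 1, by call, and between the collagen days 14 were called lower at day 13 and 3 higher. Over all tested genes these shares were 6.62% and 6.29% between the matrices and 28.1% and 27.1% between the days. Ccn2 was at 18.6 ± 4.71 CPM (SD, n = 5) in collagen day 13, lower than in either group compared here.

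Genes of glycolysis and of the hypoxia response rose in part. Of 26 tested, 16 were called higher and 10 were not called, with a median of 0.99. The ones that rose most are known as targets of the hypoxia-inducible factors. Adm, adrenomedullin, was at 17.3, 18.7 and 15.2 CPM in Matrigel and 2.94, 2.32 and 1.71 CPM in collagen day 7, a change of 2.86 (SE 0.34, adjusted p = 2.25e-07), Ankrd37 at 141, 147 and 161 CPM against 26.5, 30.6 and 20.5 CPM (2.53), and Slc16a3, the lactate exporter, at 93.2, 118 and 125 CPM against 29.4, 30.6 and 17.9 CPM (2.10). Bnip3 (1.72), Hk2 (1.33), Vegfa (1.23) and Car9 (1.05) were also called. Phosphofructokinase genes rose too (Pfkl, 1.23, and Pfkp, 1.10), but the later enzymes of glycolysis on the list were not called, with Ldha at -0.08 (adjusted p = 0.684), Pkm at -0.36 (adjusted p = 0.123), Eno1 at -0.48 (adjusted p = 0.125) and Gapdh at -0.43 (adjusted p = 0.183). The letters ACGTG of the hypoxia response element were found in 14 of 24 promoter windows of this list (58.3%), against 26.6% of all windows. In collagen day 13 Ankrd37 at 144 ± 21.5 CPM (SD, n = 5) and Slc16a3 at 142 ± 33.5 CPM (SD, n = 5) did not pass the test against Matrigel, while Adm at 4.97 ± 0.959 CPM (SD, n = 5) was lower than in Matrigel (1.77, adjusted p = 3.50e-05).

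Of 28 tested genes of fatty acid oxidation and lipid handling 14 were called higher and 4 lower, with a median of 0.28, and changes were modest. Acadm, of mitochondrial oxidation, was at 117, 117 and 101 CPM in Matrigel and 64.7, 67.02 and 66.1 CPM in collagen day 7 (0.77). Fabp1, a fatty acid carrier of gut and liver, was at 16.1, 14.4 and 20.98 CPM against 7.35, 5.42 and 4.69 CPM (1.55) and higher still in collagen day 13, at 53.8 ± 4.49 CPM (SD, n = 5). Nuclear-encoded respiratory chain genes were lower or not called: of 39 tested, 17 were called lower and 22 were not, with a median of -0.30. Cycs, cytochrome c, was at 86.6, 99.8 and 104 CPM against 194, 171 and 166 CPM (-0.87) and Sdhb at 192, 191 and 246 CPM against 403, 353 and 328 CPM (-0.79). Of 23 tested cholesterol synthesis genes 18 were not called, 4 were called lower and 1 higher (median -0.15).

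Enzymes that handle foreign compounds and retinoids rose. Of 26 tested, 18 were called higher and 2 lower, with a median of 1.63. Stra6, a transporter of retinol, was at 11.02, 19.2 and 13.4 CPM in Matrigel and 0.981, 1.16 and 0.426 CPM in collagen day 7, a change of 3.97 (SE 0.49, adjusted p = 5.36e-07). Ces2c, a carboxylesterase, was at 5.11, 13.95 and 15.2 CPM against 0.490, 1.94 and 0.426 CPM (3.39) and Sult1b1, a sulfotransferase, at 13.4, 30.5 and 20.4 CPM against 2.94, 3.87 and 0.853 CPM (3.02). The spread within Matrigel was wide for both, but no library of 1 group reached the other, which the choice of genes required. Cyp3a13 rose from a mean of 75.4 to 508 CPM (2.75) and Aldh1a1, which makes retinoic acid, from 4.02 to 22.4 CPM (2.47). Aldh3a1 went the other way, at 50.4, 42.7 and 53.6 CPM against 115, 121 and 128 CPM (-1.32). In collagen day 13 Stra6 stayed at 1.81 ± 0.980 CPM (SD, n = 5), not called against day 7, whereas Sult1b1 at 34.9 ± 12.2 CPM (SD, n = 5) and Ces2c at 13.4 ± 6.25 CPM (SD, n = 5) did not pass the test against Matrigel.

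Glutathione and NRF2 genes divided, with 12 called higher and 14 lower of 30 tested (median -0.33). Gpx2, a glutathione peroxidase of the gut, was called higher, at 7.48, 9.16 and 11.7 CPM in Matrigel against 0.490, 0.387 and 0.426 CPM in collagen day 7, where each library held 1 count. Gstt1, a theta-class transferase, was at 59.02, 59.3 and 58.9 CPM in Matrigel and 5.39, 3.87 and 2.56 CPM in collagen day 7, a change of 3.90 (SE 0.27, adjusted p = 4.02e-11), and Cbr1, carbonyl reductase, at 71.2, 74.5 and 95.6 CPM against 21.1, 26.7 and 20.9 CPM (1.80). Among the genes called lower, Slc7a11, the cystine importer, was at 19.7, 17.002 and 16.3 CPM against 52.5, 54.6 and 71.6 CPM (-1.74) and Nqo1 at 12.98, 13.5 and 12.8 CPM against 35.8, 32.2 and 33.7 CPM (-1.36). Txnrd1 (-1.06), Srxn1 (-1.08), Gclm (-0.90) and Hmox1 (-0.97) were called lower too. Gclc, the partner of Gclm in glutathione synthesis, was called higher (0.56), as were Gsta3 (1.37), Cbr3 (1.13), Gstm1 (0.79) and Me1 (0.58). Nqo1 was at 31.5 ± 3.93 CPM (SD, n = 5) in collagen day 13, which did not pass the test against day 7 and was higher than in Matrigel (-1.26, adjusted p = 3.91e-05), while Slc7a11 was at 19.3 ± 13.5 CPM (SD, n = 5) and not called against Matrigel.

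Antigen presentation genes and several regulators of the interferon response were higher in Matrigel. Of 19 tested genes of the list of interferon-stimulated and MHC class I genes, 12 were called higher and 7 were not called, with a median of 0.90. Tap2, a subunit of the peptide transporter of MHC class I, was at 19.3, 22.7 and 19.2 CPM in Matrigel and 0.490, 1.16 and 0.853 CPM in collagen day 7, a change of 4.47 (SE 0.37, adjusted p = 8.62e-10), and Tapbp, tapasin, at 246, 255 and 197 CPM against 70.6, 69.7 and 64.4 CPM (1.77). The class I chains H2-K1 (1.17) and H2-D1 (0.90) and their light chain B2m (0.86) were called as well. H2-K1 and H2-D1 are close relatives, and reads can be split between them. Irf9, a subunit of the factor that interferon activates, was at 13.4, 15.7 and 23.3 CPM against 5.88, 5.04 and 3.84 CPM (1.79). Isg15 (0.09, adjusted p = 0.842) and Ifit1 (-0.30, adjusted p = 0.587) did not pass the test, and 11 of the 30 listed genes, Mx1 and Rsad2 among them, were too low to test.

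Of 28 tested genes of the unfolded protein and integrated stress response, 8 were called higher and 7 lower (median -0.02), shares near the 24.9% and 25.7% over all tested genes. Those that rose act in the unfolded protein response of the endoplasmic reticulum. Dnajb9, a chaperone, was at 94.4, 92.4 and 81.6 CPM in Matrigel and 39.7, 30.99 and 27.7 CPM in collagen day 7, a change of 1.46 (SE 0.22, adjusted p = 9.63e-06), Herpud1 at 204, 206 and 221 CPM against 114, 99.2 and 104 CPM (0.99), and the factor Xbp1 at 374, 350.1 and 401 CPM against 216, 217 and 176 CPM (0.88). Most of those that fell serve amino acid uptake and synthesis. Slc7a5, the large neutral amino acid transporter, was at 21.2, 23.98 and 18.1 CPM against 84.3, 79.4 and 115 CPM, a change of -2.13 (SE 0.18, adjusted p = 1.33e-09), and the serine pathway enzymes Phgdh and Psat1 at 53.1, 55.8 and 59.4 CPM against 179.9, 151 and 191 CPM (-1.64) and at 65.3, 71.9 and 86.8 CPM against 209, 194 and 209 CPM (-1.46). Atf4, the factor that controls this second set, was not called (-0.20, adjusted p = 0.397).

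Of 22 tested cell cycle inhibitors and p53 targets 11 were called lower and 6 higher, with a median of -0.23. Gdf15, a secreted stress cytokine, was at 14.95, 11.8 and 13.99 CPM in Matrigel and 39.7, 59.3 and 67.8 CPM in collagen day 7, a change of -2.03 (SE 0.24, adjusted p = 2.61e-07), Ccng1 at 98.4, 101 and 108 CPM against 264, 256 and 311 CPM (-1.44), and Aen, a nuclease, at 4.72, 5.23 and 1.17 CPM against 16.7, 15.1 and 17.5 CPM (-2.05). Bax (-1.08) and Mdm2 (-0.78) were called lower as well. Cdkn1a, which encodes the p21 inhibitor and is itself a p53 target, was called higher (0.53, means 376 CPM in Matrigel and 261 CPM in collagen), as was Rbl2, a pocket protein of resting cells, at 18.5, 19.6 and 23.9 CPM against 11.3, 14.3 and 11.1 CPM (0.73). Ccnd2, cyclin D2, was at 685, 756 and 653 CPM against 345, 337 and 374 CPM (0.99), while Ccnd1, cyclin D1, was called lower (-0.79, means 798 CPM in Matrigel and 1379.7 CPM in collagen), so the 2 D-type cyclins moved in opposite directions.

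**Figure D4:**
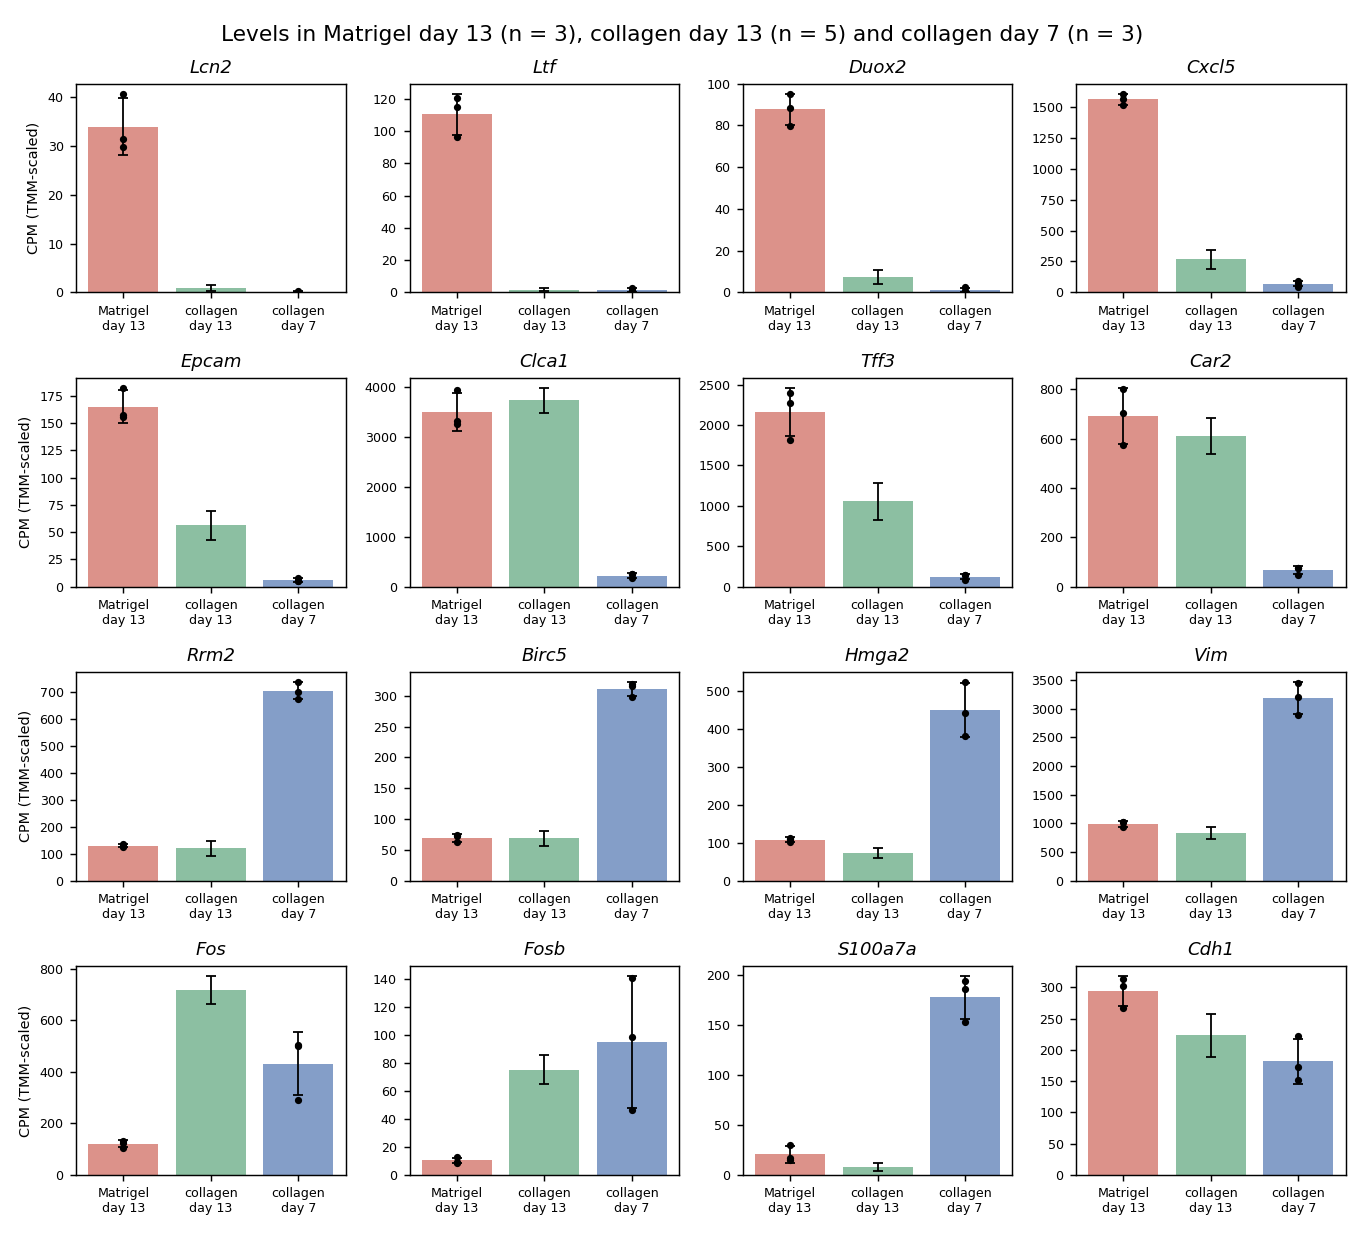
CPM of 16 named genes in Matrigel day 13 (n = 3), collagen day 13 (n = 5) and collagen day 7 (n = 3), with bars as means from 0, error bars as SD and points as single libraries of the 2 groups compared. Rrm2, Birc5, Clca1 and Car2 have like means at day 13 in both matrices, Lcn2 and Ltf are near 0 in both collagen groups, and Fos and Fosb are lowest in Matrigel.

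Set side by side, the genes with the largest changes followed different courses across the 3 groups. Lcn2, Ltf, C3, Stra6 and Ltbp2 were high in Matrigel and did not pass the test between the collagen days. Clca1, Car2, Gkn3, Ankrd37, Cybrd1 and Foxa3 were high in collagen at day 13 as well as in Matrigel, with log2 differences of -0.09, 0.18, 0.23, 0.06, -0.41 and -0.49 that did not pass the test. Epcam, Prom1, Pigr, Cxcl5 and Il1a lay between the groups in collagen day 13 and were called against each of them. Among the genes that fell, Rrm2, Birc5, Odc1 and Vim were low at day 13 in both matrices, with differences of 0.11, 0.01, 0.04 and 0.25 that did not pass the test, whereas Fosb, Nr4a1, Nqo1 and Id3 were low in Matrigel and not called between the collagen days, with changes there of -0.34, -0.06, -0.10 and 0.12. For a single gene, 3 libraries against 3 cannot give an exact permutation p below 0.1, so the calls rest on the fit over all tested genes.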

How the data were processed

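RNA was sequenced from 23 libraries, of which 6 are compared here. The authors deposited raw counts per gene and library: UMI counts from 3'-end libraries of poly(A) RNA, made with the Drop-seq pipeline on the mouse genome GRCm38 with GENCODE annotation. Whether counting used strand is not given in the sources used here, so overlapping genes are uncertain. Counts of genes with near-identical copies can be split between them.

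Of 27207 genes in the table, 11144 passed filterByExpr over the 6 conditions and were tested. Counts were scaled by TMM and fitted over all 23 libraries with 1 term per condition in edgeR 4.0.16 (quasi-likelihood test, R 4.3.3, limma 3.58.1), with Benjamini-Hochberg adjustment over all tested genes and a threshold of 0.1. The study used DESeq2; here DESeq2 1.42.0 was an alternative. Tested on simulated data with 11144 genes for this comparison, the edgeR step recovered 77% of 100 genes changed 2-fold and 92% of 100 changed 4-fold. Only these genes were changed, as many up as down. The simulation therefore does not show recovery or scaling where about every other gene differs. Counting intervals are exact at 95% and, like the floor of 3 counts, cover counting error only. Principal components used log2 CPM with a prior count of 2. Positions came from a GENCODE annotation of GRCm38 and covered 26404 of the genes in the table, 11002 of them tested. RefSeq promoter windows (GRCm38.p6, 300 bases) were found for 8541 tested genes.

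The members and gene lists were chosen with earlier results of these data known. Named were the 12 strongest rises and 12 strongest falls among called genes whose groups did not overlap and whose higher group had a mean of 20 CPM or more. Next came up to 3 genes each way per list, also called, without overlap and with 10 CPM or more in the higher group. Last came Cdh1, Cdh2, Vim, Krt7, Krt19 and Epcam, whatever their values. These made 149 genes. A few of these genes are not reported here. Any other gene is a list member chosen after its values were seen. Alternatives covered the scaling, the low-count filter, the libraries in the fit, a replicate block, the threshold and each library left out. The same-number libraries of the 2 groups did not deviate together (correlations of -0.032, 0.0215 and -0.0224).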

Additional observations from a re-analysis of the deposited data

Results flagged for a closer look

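In 8 of the 149 named genes, 1 of the 5 collagen day 13 libraries of batch 1 lay far from the other 4, by a gap test. Chance alone gives about 1 in 20 groups in this test, and 8 of 149 is near that share. Replicate 5 was the highest for Acadm (142 CPM), Ezh2 (51.5 CPM, next library 40.8), Herpud1 (286, next 239), Itga3 (122, next 102) and Pparg (295, next 239). Replicate 3 was the lowest for Duoxa2 (4.79 CPM, next 16.7) and for Il1a (22.5, next 36.9), so the day 13 collagen means of these 2 genes are lower than the other 4 libraries alone would give. Replicate 4 was the lowest for Xbp1 (315 CPM, next 402). The groups of 3 libraries that the comparison itself rests on are too small for this test.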

How the results depend on the processing

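The number of called genes stayed within 1.5 times of 5637 under every alternative tried, from 3780 of the 7050 genes that had 10 or more counts in each of the 23 libraries to 6528 without the 3 2D libraries with the lowest scaling factors, an alternative chosen after seeing the data, and no gene was called in the opposite direction. Leaving out 1 of the 6 libraries in turn gave 4910 to 5271 called genes and 2171 to 2365 changed at least 2-fold. The number changed at least 2-fold fell to 919 under that first filter, which leaves out genes absent from 1 group. DESeq2 called 5326 genes and the 6 libraries alone 6258. With scaling by library size alone, 59.07% of the 5070 called genes were higher in Matrigel, against 49.25%, and the median over all genes moved to 0.105. The ratio of the mean distance between the groups to the largest mean distance within a group was 3.857 with 500 genes and 2.271 with all tested genes. The same replicate numbers do not pair the libraries, and a replicate block gave 5746 called genes (2221 at least 2-fold) over 23 libraries and 6163 (2035 at least 2-fold) over the 6, with correlations between 9 pairs of libraries of -0.0398 to 0.0558, and 1 of the 3 Matrigel libraries correlated best with its own number. Of 2480 values of named genes over the alternatives, 2417 kept their side of the threshold, 63 lost the call and 0 reversed. Pparg, Fosl2, Krt7 and Spry1 lost it most often. The medians of the p53 list (-0.30 to 0.05), the protease list (-0.04 to 0.23), the oncofetal list (-1.51 to 0.13) and the stress response list (-0.05 to 0.11) crossed 0, and those of the other 24 lists kept their sign. Depth limits genes under about 1.5 CPM.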

Other observations

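The 6 batch 1 libraries from 2D culture of the same line give a reference outside both gels, in the same edgeR fit. Several of the genes that were lower in Matrigel day 13 than in collagen day 7 were also lower in 2D culture than in collagen day 7. Hmga2 was at 112 ± 17.03 CPM (SD, n = 6) in 2D, which differed from Matrigel by -0.03 (Matrigel minus 2D, adjusted p = 0.895) and from collagen day 7 by 2.02 (day 7 minus 2D, adjusted p = 5.63e-11). Il5ra, the interleukin 5 receptor chain, was at 9.60 ± 3.01 CPM (SD, n = 6) (0.25, adjusted p = 0.495 for Matrigel and 3.47, adjusted p = 2.07e-12 for day 7). Areg, the EGF receptor ligand, was at 79.5 ± 15.7 CPM (SD, n = 6) (0.21, adjusted p = 0.337 for Matrigel and 1.79, adjusted p = 2.83e-09 for day 7). For these 3 genes the day 7 organoids were the high group, and the difference between Matrigel and 2D did not pass the test. Rrm2 was at 172 ± 69.7 CPM (SD, n = 6) in 2D and Fos at 164 ± 72.8 CPM (SD, n = 6), and for both the Matrigel difference did not pass either (-0.43, adjusted p = 0.144, and -0.42, adjusted p = 0.216).

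The genes that were higher in Matrigel did not share 1 order. Stra6 was at 18.2 ± 5.30 CPM (SD, n = 6) and Gstt1 at 48.7 ± 12.1 CPM (SD, n = 6) in 2D. Their difference from Matrigel did not pass the test (-0.34, adjusted p = 0.355, and 0.32, adjusted p = 0.158). That from day 7 did (-4.32, adjusted p = 5.84e-08, and -3.58, adjusted p = 1.95e-10), so day 7 was the low group. Other genes stood otherwise. Epcam was at 20.3 ± 5.80 CPM (SD, n = 6) and Clca1 at 533 ± 49.3 CPM (SD, n = 6) in 2D, above collagen day 7 (-1.73, adjusted p = 5.44e-05, and -1.28, adjusted p = 2.39e-07) and below Matrigel (3.09, adjusted p = 1.39e-11, and 2.71, adjusted p = 1.03e-13). Duox2 was at 2.40 ± 1.82 CPM (SD, n = 6) and Lama3 at 0.937 ± 0.250 CPM (SD, n = 6), where the difference from day 7 did not pass the test (-0.70, adjusted p = 0.405, and -0.59, adjusted p = 0.572) while that from Matrigel did (5.31, adjusted p = 2.53e-12, and 3.88, adjusted p = 2.21e-07). The 2D libraries fall into 3 with scaling factors of 0.74 to 0.77 and 3 with 1.04 to 1.06, whose part in these values was not tested, and these contrasts share libraries with the comparison of the 2 gels.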
